A study of Mus musculus with 32 samples.

Results

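The brains of mice that lack the phenylalanine tRNA gene tRNA-Phe-GAA-1-1 (tRNA-Phe-1-1-/-, called Phe11) were compared directly with the brains of mice that lack tRNA-Phe-GAA-2-1 (tRNA-Phe-2-1-/-, called Phe21), with no wild-type library in the comparison. The labels gave 4 Phe11 brains (replicates 5, 6, 13 and 14) and 3 Phe21 brains (replicates 7, 8 and 9), which are 7 of the 32 libraries of the series. All the mice were homozygous males on a C57BL/6N background, 10 weeks of age. Both lines came from embryos injected with the same CRISPR/Cas9 guide, which cuts all tRNA-Phe genes. They were then crossed to wild-type mice and bred for generations as single deletions. The deletions and any other difference between the 2 separately bred lines cannot be told apart here. Chromatin accessibility was measured by ATAC-seq (a transposase inserts adapters where DNA is open, and the tagged fragments are sequenced) on nuclei of 1 piece of brain per library. The Phe21 brains and Phe11 replicates 5 and 6 carry sequencing batch 1, and Phe11 replicates 13 and 14 carry batch 2, which holds no Phe21 brain.

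The tables list 401 tRNA loci. The recovered reads over these loci came to between 25774 and 35565 per brain library, with a median of 28786. The tRNA-Arg-TCT-4-1 locus, known for its expression in the central nervous system, took 80.7 to 98.1 of every 10000 reads in these brains and 0.538 to 3.20 of every 10000 in the 7 livers of the same lines, so every library matched its labelled tissue. Phe11 replicates 5, 13 and 14 differed from each other by no more than the sampling noise, with a chi-square per degree of freedom of 0.855 to 0.882. Replicates 5 and 6 differed at p = 0.0124 in the same chi-square test of read counts, and at an adjusted p of 0.0744 over the 6 Phe11 pairs. The labels list all 4 as separate samples and they were kept apart here, with the counts obtained when replicates 5, 13 and 14 are averaged into 1 sample given beside the main ones. Phe21 replicates 7 and 8 differed beyond the sampling noise (chi-square per degree of freedom 1.61, p = 5.25e-10). The libraries come from mice of different litters according to the methods, but the labels do not number the mice, so the p-values measure the spread between these samples.

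Transfer RNAs carry amino acids to the ribosome, and each pairs its anticodon with codons of the messenger RNA. The GAA anticodon of tRNA-Phe reads the phenylalanine codons UUC and UUU. RNA polymerase III transcribes tRNA genes from promoter elements inside the gene, and active copies lie in open chromatin. Mammals have many copies for most anticodons. Genes with the same anticodon and a different body are called isodecoders, and GtRNAdb names give the anticodon, the isodecoder and the copy (tRNA-Phe-GAA-1-5 is copy 5 of isodecoder 1).

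The mouse tRNA-Phe family has 7 genes of 73 bases, 5 of them with 1 sequence (copies 1-1 to 1-5) and 1 each of isodecoders 2 and 3. The sequences below are reference genes, with the 20 bases matched by the guide in capitals in the gene lost in Phe11. The bases unlike 1-1 are in capitals in the other genes, and so is the PAM in the guide's target. The sequences do not show which bases within its gene each line lost. They were matched by sequence to GRCm39, with positions on the RefSeq genes of GRCm38.p6, the build of the files.
tRNA-Phe-GAA-1-1, lost in Phe11, chr5:125406055-125406127, minus strand: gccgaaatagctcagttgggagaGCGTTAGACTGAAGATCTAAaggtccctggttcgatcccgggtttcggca
tRNA-Phe-GAA-2-1, lost in Phe21, chr19:12008545-12008617, plus strand: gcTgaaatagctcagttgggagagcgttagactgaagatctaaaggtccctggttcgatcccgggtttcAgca
tRNA-Phe-GAA-3-1, present in both, chr13:21882885-21882957, minus strand: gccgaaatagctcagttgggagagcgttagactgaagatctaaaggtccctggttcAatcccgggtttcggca
guide target with its PAM: gcgttagactgaagatctaaAGG

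Counted from 1 at the first base of the gene, tRNA-Phe-GAA-2-1 differs from 1-1 by C3T and G70A, and 3-1 differs by G57A. The guide covers bases 24 to 43, which hold the anticodon and are the same in all 7 genes. The 2 deleted genes lie on different chromosomes among other tRNA genes. RefSeq places 4 tRNA genes within 10 kb of 1-1, the nearest of them the aspartate gene n-TDgtc15 at 376 bases, and 7 within 10 kb of 2-1, the nearest the lysine gene n-TKctt30 at 1078 bases. The gene n-TFgaa6, which is tRNA-Phe-GAA-1-5, lies 6236 bases from 2-1. The other neighbours carry names that were not matched to the names of the loci measured.

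The line that lacks a gene was the lower of the 2 at that gene. At tRNA-Phe-GAA-1-1 the normalised read count (reads divided by a size factor for each library) was 45.0, 45.7, 43.1 and 31.5 in Phe11 replicates 5, 6, 13 and 14, and 137, 132 and 127 in Phe21 replicates 7, 8 and 9. All Phe11 brains lay far below all Phe21 brains. Bases missing from the deleted gene can give no reads, so the difference here is not a measure of openness alone. At loci present in both lines, fewer cells with an open locus and less opening per cell cannot be told apart in whole tissue. The mean in Phe11 was 41.3 ± 6.66 (SD, n = 4) against 132 ± 5.28 (SD, n = 3) in Phe21, or 31.3% of it. The exact permutation test (35 arrangements) gave a two-sided p of 0.0286, the smallest it can give, and the fit across all loci (limma) gave a log2 difference, Phe11 minus Phe21, of -1.67 ± 0.14 (SE) with an adjusted p of 8.11e-11. Within batch 1 the difference was -1.50 with an adjusted p of 6.41e-05, and it is the lowest of the 268 loci tested. With no wild-type library in the comparison, a rise in 1 line and a fall in the other cannot be told apart at any locus, and higher and lower below refer to Phe11 relative to Phe21.

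The tRNA-Phe-GAA-2-1 locus had few reads in any brain. The reads were 7, 4, 8 and 13 in Phe11 replicates 5, 6, 13 and 14, and 2, 0 and 0 in Phe21 replicates 7, 8 and 9, where 0 reads allow up to 3. The groups did not overlap. The 2 reads of Phe21 against 32 reads of Phe11 put Phe21 at 8.85% of Phe11 after scaling (95% exact binomial interval 1.03% to 34.7%, for counting error only). The exact permutation p was 0.0286 over all libraries and 0.20 within batch 1, where 0.10 is the smallest possible. The locus was under the mean of 10 normalised reads asked for in the fit across loci, so 6 of the 7 tRNA-Phe loci were tested there. The 1-1 locus kept 171 reads over the 4 Phe11 brains. Each counted region holds short flanks beside the gene, and the paper describes deletions that lie within the genes. Flanks and remaining bases can therefore still give reads, and how many came from them was not tested.

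**Figure D1:**
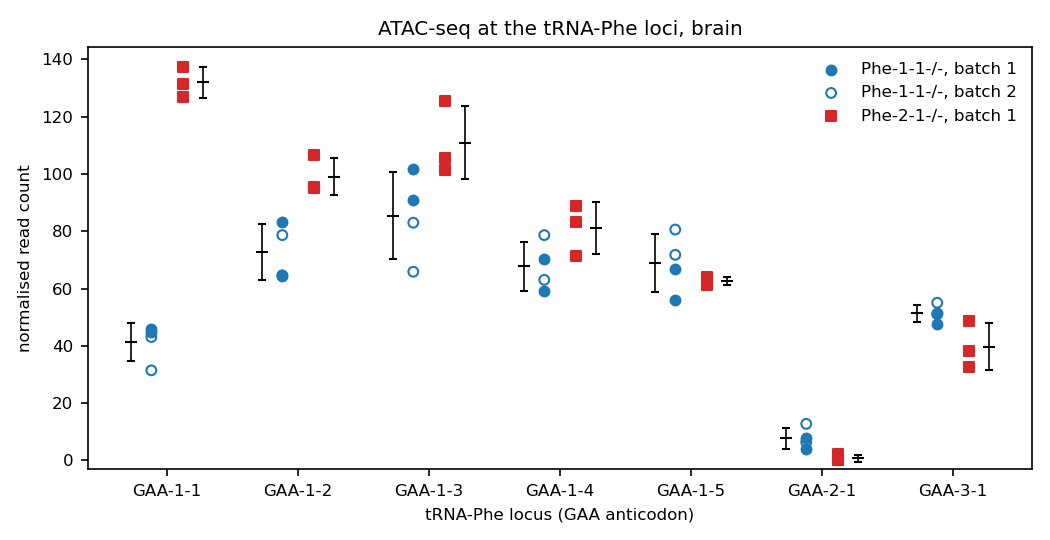
Normalised read count (linear axis) at each of the 7 tRNA-Phe loci, with 1 point per brain (Phe-1-1-/- as blue circles, open for batch 2, and Phe-2-1-/- as red squares) and the group mean ± SD in black. The groups are far apart at 1-1 (means 41.3 and 132), do not overlap at 1-2 and 2-1, and overlap at 1-3, 1-4, 1-5 and 3-1.

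The 5 tRNA-Phe loci present in both lines did not stand higher in Phe11 as a sum. Their summed normalised count was 363, 329, 342 and 350 in Phe11 replicates 5, 6, 13 and 14, and 401, 403 and 377 in Phe21 replicates 7, 8 and 9. Every Phe11 brain lay below every Phe21 brain. The mean was 346 ± 14.04 (SD, n = 4) in Phe11 and 393 ± 14.5 (SD, n = 3) in Phe21, so Phe11 held 88.0% of the Phe21 level, with an exact permutation p of 0.0286. With libraries scaled to equal totals the log2 difference went from -0.18 to -0.11 and the exact permutation p to 0.1143. Within batch 1 alone Phe11 held 89.0% (exact permutation p = 0.20, smallest possible 0.10). Lower sums were common between these lines. Of 47 anticodon sums, 21 were called lower in Phe11 by limma (44.7%), and the median log2 difference over all 47 was -0.093.

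The lower sum came from copies of isodecoder 1. tRNA-Phe-GAA-1-2 read 83.3, 64.4, 64.7 and 78.7 in Phe11 and 95.2, 106 and 95.4 in Phe21, with a log2 difference of -0.45 ± 0.12 (SE, limma adjusted p = 0.00414) and no overlap, and its adjusted p was 0.0407 with batch as a term and 0.076 within batch 1. At tRNA-Phe-GAA-1-3 the counts were 91.0, 102, 83.0 and 65.9 in Phe11 and 106, 126 and 102 in Phe21 (log2 difference -0.38 ± 0.13, SE, limma adjusted p = 0.0146). The highest Phe11 brain passed the lowest Phe21 brain there, the difference shrank to -0.18 within batch 1 (limma adjusted p = 0.363), and the call was lost when Phe11 replicate 14 or Phe21 replicate 8 was left out (-0.26 and -0.30, limma adjusted p = 0.0969 and 0.111). tRNA-Phe-GAA-1-4 had means of 67.8 ± 8.56 (SD, n = 4) and 81.1 ± 8.94 (SD, n = 3) and was not called (limma adjusted p = 0.116). The exact permutation p was 0.0571 at 1-2, 0.0857 at 1-3 and 0.1143 at 1-4.

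The 2 remaining loci had higher means in Phe11, without passing the test over all 7 brains. tRNA-Phe-GAA-1-5, the copy nearest to the gene that Phe21 lacks, read 66.9, 56.1, 80.6 and 71.8 in Phe11 and 62.4, 61.3 and 64.0 in Phe21 (log2 difference 0.13 ± 0.14, SE, limma adjusted p = 0.497), and within batch 1 the difference was -0.013. At tRNA-Phe-GAA-3-1 the counts were 51.5, 47.8, 51.1 and 55.1 in Phe11 and 48.6, 38.2 and 32.5 in Phe21 (log2 difference 0.38 ± 0.17, SE, limma adjusted p = 0.0669). Equal totals brought 3-1 to an adjusted p of 0.0322, while within batch 1 it was 0.276, and around the trend with locus level described below the difference was 0.12 (limma adjusted p = 0.642). Single Phe21 brains moved it too: 3-1 was called without replicate 7 (0.53, limma adjusted p = 0.0133), and its difference was 0.24 without replicate 9 (limma adjusted p = 0.332).

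Counting the deleted loci too, the 7 tRNA-Phe loci summed to 395 ± 15.1 (SD, n = 4) in Phe11 and 526 ± 19.7 (SD, n = 3) in Phe21, so Phe11 held 75.1% (exact permutation p = 0.0286). Of this sum, 1-1 made up 10.5% ± 1.74 (SD) in Phe11 and 25.1% ± 0.42 in Phe21, where it was the most accessible of the 7 loci. In the Phe11 brains 1-3 had the highest share, 21.7% ± 4.15, next to 21.1% ± 2.12 in Phe21. The shares of 1-5 (means of 17.4% against 11.9%) and 3-1 (12.4% or more in each Phe11 brain against a mean of 7.53% in Phe21) were larger in Phe11, as they must be in part where the total holds less of 1-1.

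Across all tRNA loci, 120 of the 268 tested differed between the lines at an adjusted p under 0.05, which is 44.8%, with 64 higher in Phe11 (23.9%) and 56 lower (20.9%). The higher loci had a median log2 difference of 0.70 and reached 1.59. The lower loci had a median of -0.36 and reached -1.67, at the deleted gene. The values of the groups did not overlap at 120 of the 268 loci (44.8%), 62 with Phe11 above and 58 with Phe11 below. With libraries scaled to equal totals the calls were 77 higher and 38 lower, and the split moved from 53.3% to 67.0% higher, so the balance of the directions rests on the scaling. The median over all tested loci moved from -0.017 to 0.052 between these scalings.

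The batches do not separate from the genotype in full, since batch 2 holds Phe11 brains only. Within batch 1, Phe11 replicates 5 and 6 against the 3 Phe21 brains gave 22 higher (8.37%) and 28 lower (10.6%) of 263 loci, 19.0% in all. All 50 were among the 120 and in the same direction, but both fits hold the same Phe21 brains and share Phe11 replicates 5 and 6. With batch as a term, 40 were higher and 38 lower (29.1%). Between batches 2 and 1 within Phe11, limma called 0 of 272 loci (0.0%), with 9 at an unadjusted p under 0.05, and edgeR on recovered reads also called 0, with 9. The 4 Phe11 samples counted as 2 (replicate 6, and the mean of 5, 13 and 14) left 39 higher and 39 lower (29.1%).

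The direction of the difference followed the level of the locus. The tested loci were ordered by their mean over the 7 brains and cut into 3 groups. In the low group (10.3 to 56.9 normalised reads), 43 of 89 were higher in Phe11 and 3 lower, with a median log2 difference of 0.56. In the middle group the counts were 15 higher and 11 lower of 89. In the high group (115 to 517 normalised reads) 6 of 90 were higher and 42 lower, with a median of -0.16. The same order held within batch 1, with medians of 0.47 in the low and -0.14 in the high group.

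The library values show this as a division of reads. The low group took 11.1%, 10.8%, 11.7% and 11.3% of the reads in Phe11 replicates 5, 6, 13 and 14, and 8.47%, 7.15% and 8.14% in Phe21 replicates 7, 8 and 9. The high group took 60.9% to 62.0% in Phe11 and 65.5% to 67.2% in Phe21. The 133 loci too low to test took 82.1 to 87.9 of every 10000 reads in Phe11 and 60.1 to 72.6 in Phe21. The groups did not overlap in any of these shares. Phe21 replicate 8 had the lowest of the 7 values at 42 of the 64 loci called higher, replicate 9 at 17 and replicate 7 at 5. These loci were called for low Phe21 values, so a Phe21 brain was nearly bound to be lowest. The same count over all tested loci was not made. Without replicate 8 there were 44 higher and 43 lower calls. As an alternative added after the data were seen, the libraries were evened out along locus level (cyclic loess) and the fit was repeated. Its differences are called values around the trend with level. It gave 45 higher and 45 lower calls (33.6% in all), kept 65 of the 120 in the same direction and turned the sign of 9. The part of the pattern with level in the differences of single loci was not tested, so values around the trend stand beside the loci named below.

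**Figure D2:**
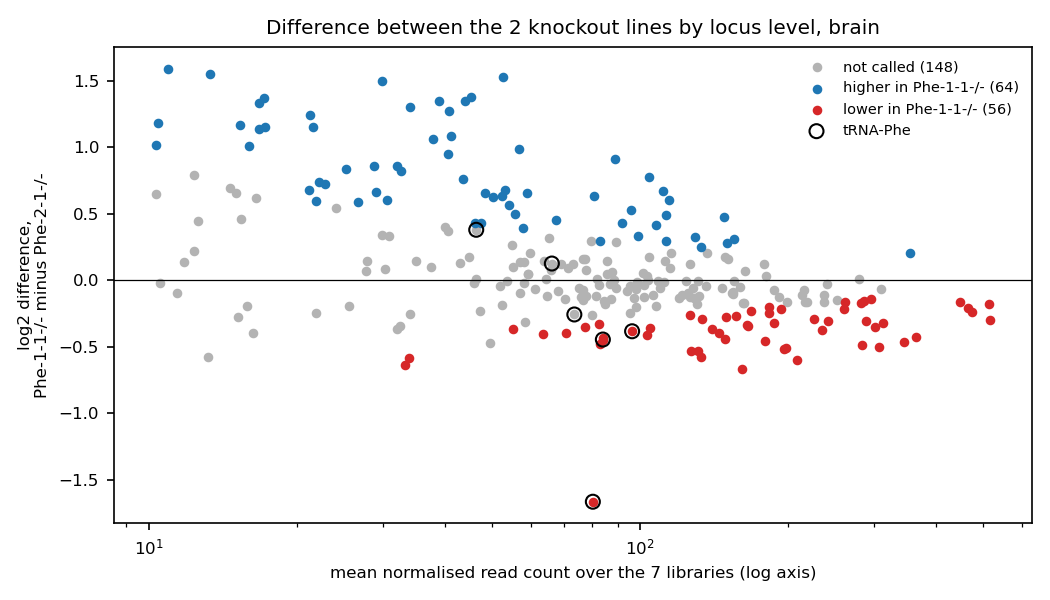
Log2 difference (Phe-1-1-/- minus Phe-2-1-/-) against the mean normalised read count over the 7 brains (log axis), with 1 point per tested locus and tRNA-Phe loci circled. Loci called higher (64, blue) lie mostly at low means and loci called lower (56, red) mostly at high means, with 1-1 alone at -1.67.

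The leucine loci CAA-4-1 and TAA-3-1 were among the 10 loci furthest above Phe21 in the Phe11 brains. Leucine codons UUG and UUA, read by the CAA and TAA anticodons, share their first letters with the phenylalanine codons. tRNA-Leu-CAA-4-1 read 63.6, 69.6, 68.6 and 91.5 in Phe11 and 32.8, 19.1 and 23.4 in Phe21. Every Phe11 brain was well above every Phe21 brain, and the mean in Phe11 was 293% of that in Phe21. The log2 difference was 1.53 ± 0.18 (SE, limma adjusted p = 8.58e-08), 1.42 within batch 1 (adjusted p = 0.00458) and 1.27 around the trend with level (adjusted p = 1.25e-06).

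tRNA-Leu-TAA-3-1 read 68.0, 56.1, 54.3 and 61.0 in Phe11 and 23.3, 20.1 and 25.4 in Phe21. The groups were again far apart, with Phe11 at 261% of Phe21. The log2 difference was 1.35 ± 0.18 (SE, limma adjusted p = 3.43e-07), 1.41 within batch 1 (adjusted p = 0.00277) and 1.01 around the trend (adjusted p = 2.60e-05). RefSeq places a leucine TAA gene, n-TLtaa4, 2468 bases from the gene that Phe21 lacks. It places lysine CTT, arginine TCT and valine TAC genes within 10 kb there as well. None of these was matched to a locus measured. The summed Leu-CAA loci had a log2 difference of 0.02 ± 0.05 (SE) and the summed Leu-TAA loci 0.07 ± 0.05, neither of them called (limma adjusted p = 0.684 and 0.249). Around the trend both were called, at 0.16 and 0.21 (limma adjusted p = 0.00271 and 0.000496), and with equal totals Leu-TAA was, at 0.14 (limma adjusted p = 0.0214). Another leucine locus, tRNA-Leu-AAG-3-1, read 38.4, 45.7, 53.5 and 41.3 in Phe11 and 28.5, 8.04 and 22.3 in Phe21, lowest in replicate 8 (log2 difference 1.30 ± 0.26, SE, limma adjusted p = 0.000187), with an adjusted p of 0.075 within batch 1 and a difference of 0.83 around the trend (limma adjusted p = 0.00662). Without Phe21 replicate 8 the difference was 0.78 (limma adjusted p = 0.00267).

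The other loci among the 10 furthest above carry arginine, serine, valine, lysine, glutamine, alanine and asparagine. tRNA-Arg-ACG-3-2 read 39.5, 41.6, 40.7 and 44.3 in Phe11 and 19.0, 13.1 and 11.2 in Phe21, and its log2 difference of 1.49 ± 0.22 (SE, limma adjusted p = 2.10e-06) was 0.97 around the trend with level. tRNA-Ser-GCT-1-1 read 62.5, 58.2, 61.5 and 62.0 against 31.7, 14.1 and 26.4 (log2 difference 1.38 ± 0.20, SE, and 1.05 around the trend). tRNA-Val-CAC-1-1 read 47.2, 54.1, 59.9 and 49.2 against 29.6, 13.1 and 20.3 (log2 difference 1.35 ± 0.21, SE, and 0.94 around the trend). These 3 loci had no overlap between the lines, stayed called without any 1 of the libraries, and were called within batch 1, with adjusted p of 0.00929, 0.0144 and 0.019 by limma.

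The rest of the 10 had low counts. At each of them the Phe21 mean was under 10, so the locus reached the mean of 10 asked for only through the Phe11 brains. tRNA-Lys-TTT-3-1 (16.6 to 30.7 in Phe11, 6.03 to 11.2 in Phe21), tRNA-Gln-CTG-1-1 (20.8 to 26.3 and 7.03 to 10.6) and tRNA-Ala-AGC-5-3 (14.6 to 20.7 and 3.17 to 9.14) had no overlap, with log2 differences of 1.37, 1.33 and 1.55. Around the trend with level these were 0.63, 0.59 and 0.70, with adjusted p of 0.0903, 0.0953 and 0.123, and within batch 1 it was 0.0561, 0.0416 and 0.0761 by limma. tRNA-Asn-GTT-3-3, with the largest difference of the higher loci (1.59 ± 0.42, SE, limma adjusted p = 0.0024), read 12.1, 7.28, 23.9 and 18.7 in Phe11 and 9.52, 2.01 and 3.05 in Phe21. The lines overlapped there, the higher Phe11 values were those of batch 2, and with batch as a term the adjusted p was 0.117. The call was also lost without Phe21 replicate 8 (1.21, limma adjusted p = 0.0516) and with Phe11 replicates 5, 13 and 14 as 1 sample (limma adjusted p = 0.0794). Around the trend its difference was 0.64 (limma adjusted p = 0.249). With a pseudocount of 10 it was 0.77, under the 1.26 of tRNA-Leu-CAA-4-1. Within batch 1, and without Phe11 replicate 13 or 14, tRNA-Asn-GTT-3-3 fell under the filter and was not tested.

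The loci lower in Phe11 were led, after tRNA-Phe-GAA-1-1, by well-covered loci with smaller differences. tRNA-Arg-CCG-3-1 read 115, 134, 129 and 136 in Phe11 and 183, 213 and 218 in Phe21, a log2 difference of -0.67 ± 0.09 (SE, limma adjusted p = 3.43e-07). tRNA-Thr-CGT-2-1 read 189, 179, 157 and 157 against 236, 275 and 267, a difference of -0.60 ± 0.08 (SE, limma adjusted p = 3.43e-07). Both were without overlap and were called within batch 1 and around the trend with level, at -0.54 and -0.42 around the trend.

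tRNA-iMet-CAT-1-1, a copy of the initiator tRNA that starts translation, read 162, 178, 165 and 166 in Phe11 and 215, 261 and 244 in Phe21. The log2 difference was -0.51 ± 0.08 (SE, limma adjusted p = 3.06e-06), -0.47 within batch 1 and -0.33 around the trend. tRNA-Pro-AGG-1-6, tRNA-Pro-CGG-1-1, tRNA-Leu-TAG-3-1 and tRNA-Arg-TCG-1-1 stood between 66.8% and 69.7% of their Phe21 means, with differences of -0.49, -0.45, -0.44 and -0.34 around the trend. None of these 5 loci overlapped between the lines, and all 5 were called within batch 1, with batch as a term and around the trend.

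Only 2 of the 10 lowest were thinly covered. tRNA-Arg-TCT-2-1 read 26.3, 27.03, 25.5 and 27.5 in Phe11 and 42.3, 37.2 and 46.7 in Phe21, without overlap (log2 difference -0.64 ± 0.19, SE, limma adjusted p = 0.00763, and -1.08 around the trend). Its adjusted p was 0.0505 with batch as a term and the call was lost without Phe21 replicate 9 (-0.56, limma adjusted p = 0.0609). tRNA-Gly-GCC-2-4 ranged from 22.9 to 35.1 in Phe11 and from 32.8 to 53.8 in Phe21, overlapped, and had an adjusted p of 0.0234 by limma over all brains and 0.206 within batch 1. Its call was lost with batch as a term (limma adjusted p = 0.136), by DESeq2 (adjusted p = 0.0599) and without any 1 of Phe11 replicates 6, 13 and 14 or Phe21 replicate 9 (limma adjusted p = 0.0556, 0.0516, 0.0709 and 0.201). Around the trend the difference was -1.03 (limma adjusted p = 0.000255).

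**Figure D3:**
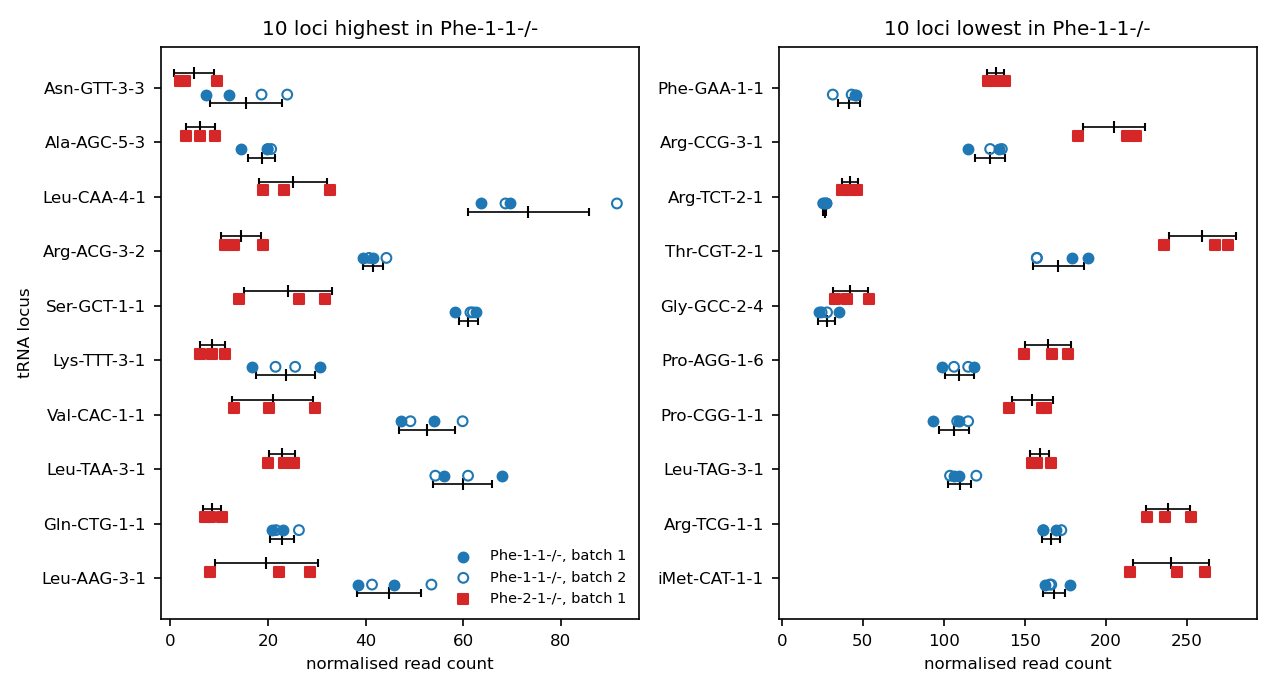
Normalised read count (linear axes that differ between the panels) in each brain at the 10 loci furthest above (left) and the 10 furthest below (right) in Phe-1-1-/- among those called, with Phe-1-1-/- in blue (open circles for batch 2), Phe-2-1-/- in red and mean ± SD in black. The groups overlap at Asn-GTT-3-3 and Gly-GCC-2-4 and at no other locus shown.

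Grouped by amino acid, counts are read against the 23.9% higher and 20.9% lower over all loci, and no difference between families was tested. Of 17 serine loci tested, 9 were higher and 2 lower, with a median log2 difference of 0.28, next to -0.017 over all loci. Outside the loci chosen by size, tRNA-Ser-CGA-3-1 is given as one seen in the values: it read 114, 118, 97.4 and 115 in Phe11 and 50.7, 59.3 and 67.0 in Phe21 (log2 difference 0.91 ± 0.12, SE, limma adjusted p = 5.82e-07, and 0.90 around the trend). Glutamine loci had 5 higher and 0 lower of 12 (median 0.47), valine 6 higher and 1 lower of 16 (median 0.17), isoleucine 4 and 1 of 13 (median 0.15) and lysine 4 and 0 of 17 (median 0.07). Around the trend with level the medians were 0.35 for serine, 0.11 for glutamine, 0.05 for valine, 0.08 for isoleucine and -0.08 for lysine, where the calls became 1 higher and 2 lower.

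The arginine loci had 3 higher and 7 lower of 23 (median -0.12), glutamate 1 and 6 of 12 (median -0.11), asparagine 1 and 3 of 7 (median -0.20), and aspartate 2 and 4 of 11 (median -0.06). Their medians around the trend were -0.030, -0.15, -0.17 and -0.13. Leucine split into 6 higher and 5 lower of 21, alanine into 6 and 4 of 20, threonine into 3 and 3 of 16, histidine into 3 and 2 of 7, and glycine into 2 and 3 of 19. Around the trend glycine had 0 higher and 8 lower calls (median -0.28) and threonine 1 and 4. Leucine then had 7 and 3, alanine 5 and 3, and histidine 2 and 0. Proline had 1 higher and 3 lower of 13, tryptophan 1 and 2 of 7, elongator methionine 1 and 2 of 6, initiator methionine 1 and 1 of 7, and cysteine 1 and 1 of 8. The 6 tested tRNA-Phe loci had 0 higher and 3 lower, one of them the deleted gene.

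**Figure D4:**
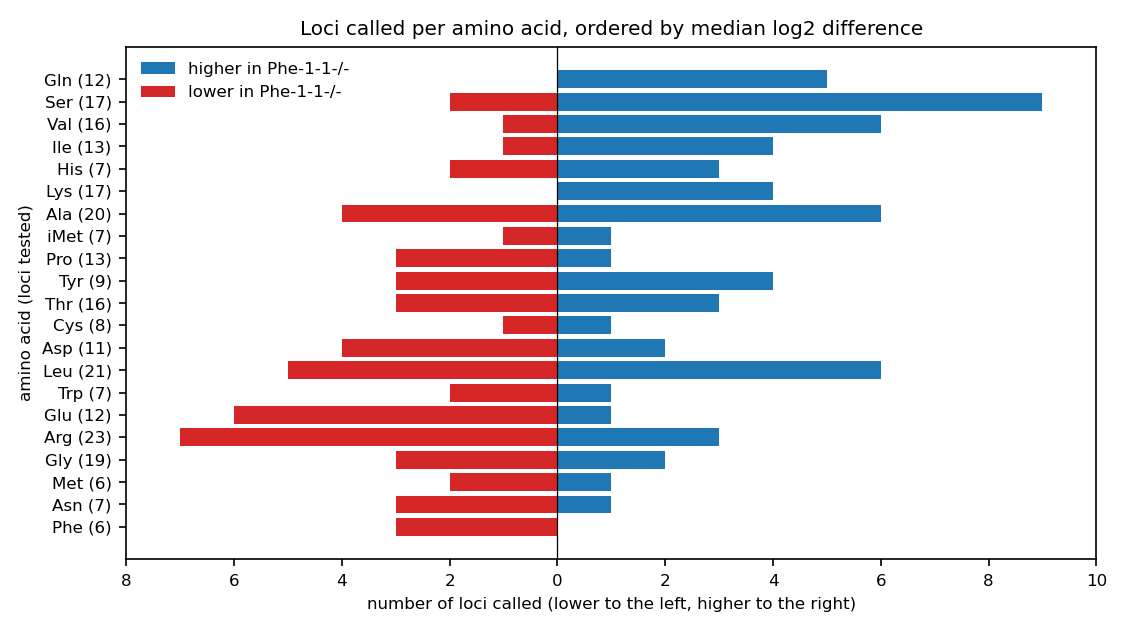
Number of loci called higher (blue, to the right) and lower (red, to the left) in Phe-1-1-/- brains for each amino acid with at least 5 tested loci (number tested in brackets), from the largest median log2 difference at the top. Serine has the most higher calls (9 of 17) and arginine the most lower calls (7 of 23).

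Tyrosine loci, singled out after their values were seen, had both kinds of call. Of 9 loci tested 4 were higher and 3 lower, though the higher call of tRNA-Tyr-GTA-1-5 (0.39, limma adjusted p = 0.041) was lost without any 1 of Phe11 replicates 5, 13 and 14 or Phe21 replicate 8 (0.21 without the latter, limma adjusted p = 0.248). The higher ones were all copies of isodecoder 1, such as tRNA-Tyr-GTA-1-3 with 63.6, 59.2, 67.0 and 63.9 in Phe11 and 41.2, 34.2 and 42.6 in Phe21 (log2 difference 0.68 ± 0.15, SE, limma adjusted p = 0.00061, and 0.48 around the trend). Those lower were the well-covered isodecoders 2 and 3, such as tRNA-Tyr-GTA-3-1 with 455, 478, 471 and 475 against 568, 582 and 589 (log2 difference -0.30 ± 0.04, SE, limma adjusted p = 7.31e-07). Around the trend with level the tyrosine loci had 5 higher and 0 lower calls. The difference at 3-1 was then -0.0001, and that at tRNA-Tyr-GTA-2-1 turned from -0.18 (limma adjusted p = 0.00218) to 0.13 (limma adjusted p = 0.00969).

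The isodecoder families tRNA-Cys-GCA-4 and tRNA-Asp-GTC-1 and the brain locus were also looked at by name. Of the 29 copies of tRNA-Cys-GCA-4, only 4-12 and 4-29 had enough reads to test and neither was called. tRNA-Cys-GCA-4-12 read 17.5, 11.4, 11.2 and 16.7 in Phe11 and 13.7, 23.1 and 20.3 in Phe21 (limma adjusted p = 0.273, and 0.00446 around the trend, where Phe11 was lower by 1.12 on the log2 scale). tRNA-Cys-GCA-4-29 had means of 31.1 ± 5.24 (SD, n = 4) and 29.0 ± 2.24 (SD, n = 3), and a difference of -0.39 around the trend (limma adjusted p = 0.146). Of 13 copies of tRNA-Asp-GTC-1, the isodecoder family with an aspartate anticodon like that of the gene next to 1-1, 10 were tested, with 2 higher and 3 lower, next to 23.9% higher and 20.9% lower over all loci, and within batch 1 the calls were 0 higher and 1 lower. Of the 4 copies of tRNA-Phe-GAA-1 other than the deleted 1-1, 2 were lower (median log2 difference -0.32), and within batch 1 alone 0 were called (median -0.24). The brain locus tRNA-Arg-TCT-4-1 read 229 to 252 in Phe11 and 244 to 293 in Phe21 and was not called (log2 difference -0.15, limma adjusted p = 0.0671, and 0.06 around the trend), though it was without Phe21 replicate 7 (-0.22, limma adjusted p = 0.00956).

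Reads were also summed over all loci of an anticodon. Of 47 anticodons 29 were called (61.7%), with 8 higher in Phe11 (17.0%) and 21 lower (44.7%). With equal totals the split turned to 11 higher and 7 lower, with TMM scaling it was 8 and 13, and within batch 1 it was 7 and 12 (40.4% called in all).

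The anticodons furthest below were Thr-CGT and Phe-GAA. Thr-CGT read 530, 546, 522 and 493 in Phe11 and 669, 735 and 707 in Phe21, a log2 difference of -0.43 ± 0.05 (SE, limma adjusted p = 1.03e-15), and no Thr-CGT gene is deleted in either line. Phe-GAA came next at -0.41 ± 0.05 (SE, limma adjusted p = 1.14e-12), and around the trend with level it was the lower of the 2, at -0.50 against -0.28. Arg-CCG followed at -0.31, Glu-CTC at -0.24 and Leu-AAG at -0.24, at 80.4%, 84.3% and 84.7% of the Phe21 level. All 5 were called within batch 1, with equal totals and around the trend.

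Those furthest above were Gln-CTG, Val-AAC, Ser-AGA, Ile-AAT and Val-CAC. Gln-CTG read 372, 396, 406 and 419 in Phe11 and 346, 303 and 298 in Phe21 (log2 difference 0.34 ± 0.06, SE, limma adjusted p = 2.01e-07). Val-AAC stood at 123%, Ser-AGA at 121%, Ile-AAT at 118% and Val-CAC at 114% of Phe21. All 5 were called within batch 1 and with equal totals. Around the trend with level, where 48.9% of the anticodons were called, Gln-CTG and Val-CAC were no longer called (limma adjusted p = 0.12 and 0.384), and Val-AAC, Ser-AGA and Ile-AAT were, at 0.18, 0.22 and 0.20.

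**Figure D5:**
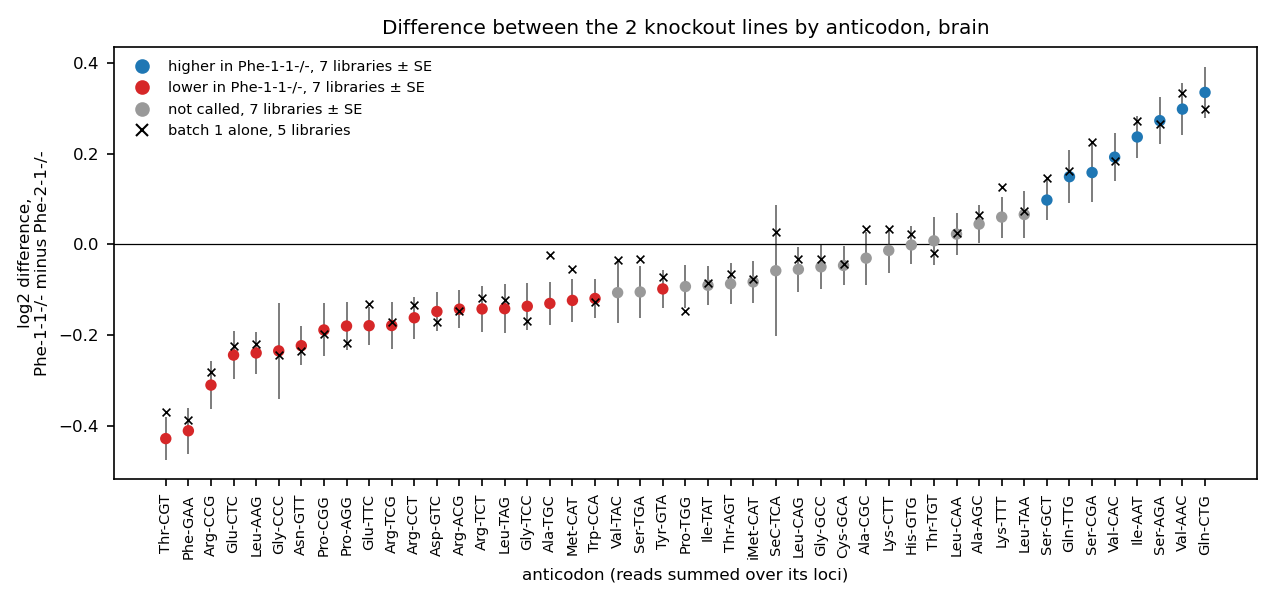
Log2 difference (Phe-1-1-/- minus Phe-2-1-/-) of the reads summed over the loci of each of 47 anticodons, in order, as points with their SE (blue higher, red lower, grey not called) and with crosses for batch 1 alone. Thr-CGT and Phe-GAA lie lowest at -0.43 and -0.41, and Gln-CTG highest at 0.34.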

How the data were processed

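Brain nuclei were profiled by ATAC-seq. The authors deposited a signal per tRNA locus, which is the locus's reads over the library's DESeq2 size factor in that table. Per the submitters' processing notes and the methods, adapters were trimmed with Trim Galore 0.6.4 and cutadapt 1.18, reads aligned with Bowtie2 2.4.1 to GRCm38.p6, duplicates removed with Picard 2.23.8, confident pairs kept with SAMtools 1.10, short nucleosome-free fragments selected with deepTools 3.5.0 and counted with featureCounts 2.0.0 over GtRNAdb high-confidence genes with short flanks, so identical copies are separated only by their flanks.

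Values of each library were whole multiples of 1 step (tolerance 1e-06), so whole reads were recovered from the 2 tables, joined on locus, and scaled anew by median-of-ratios size factors over the 7 libraries. For Phe11 replicates 6, 13 and 14 the separate check of whole reads could not be made, since it needs more low values than those columns hold. Loci with a mean of at least 10 were tested on log2(value + 1) with limma 3.58.1 (trend, two-sided) in R 4.3.3, with p-values adjusted by Benjamini-Hochberg at 0.05. Fold changes are on that scale. Single values were compared by exact permutation. Alternatives were TMM and equal totals, pseudocounts of 0.1 and 10, no filter or a mean of 30, limma without trend, edgeR 4.0.16, DESeq2 1.42.0, a batch term, batch 1 alone and each library left out. Values around the trend with level came from limma refitted after cyclic loess normalisation of the libraries (span 0.7). This fit was added after the data were seen. So were the fits with replicates 5, 13 and 14 as 1 sample and with equal totals and a batch term. Loci named were the tRNA-Phe loci, those that the study names, the brain locus and the 10 largest differences called in each direction. Members and lists were chosen with earlier results of these data known. The 14 wild-type columns of the tables read were not used, nor were the authors' tables of folds and p-values or the peaks.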

Additional observations from a re-analysis of the deposited data

Results flagged for a closer look

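Of 78 values looked at among the 4 Phe11 brains (named loci, tRNA-Phe sums and anticodon sums), 3 had 1 library far from the others, and chance alone flags about 1 group in 20. At tRNA-Ala-AGC-5-3 Phe11 replicate 6 read 14.6 normalised counts next to 19.7, 20.0 and 20.7. The Arg-ACG sum was 1002 in replicate 5 next to 1069, 1063 and 1062, and the Lys-TTT sum was 743 in replicate 6 next to 660, 658 and 646. The 3 Phe21 brains were too few for this test.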

How the results depend on the processing

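The number of loci called (120) moved by more than 1.5 times in 5 settings: 78 with a batch term, 50 within batch 1 alone, 79 by DESeq2, 78 with replicates 5, 13 and 14 as 1 sample, and 78 with equal totals and a batch term. It was 87 to 132 when 1 library was left out, lowest without Phe21 replicate 8 and highest without Phe21 replicate 7. The number of anticodons called (29) went to 18 with equal totals, 19 within batch 1, 19 by DESeq2 and 19 with the 3 replicates as 1 sample, and ranged from 22 to 29 with 1 library left out. The sum of the 5 tRNA-Phe loci present in both lines had a log2 difference of -0.11 with equal totals (exact permutation p = 0.1143). Equal totals with a batch term gave 50 higher and 28 lower. The fit around the trend with level turned the sign of 9 of the 120 called loci and 3 of the 29 called anticodons. Among loci named in the text it turned tRNA-Tyr-GTA-2-1, to 0.13, and with it tRNA-Tyr-GTA-3-2, to 0.080, and no other setting turned a called locus that is named. Why the counts moved was not tested, except that batch 1 alone and the averaged replicates leave fewer samples. Of the 22 loci named by the rule that were called, 4 lost their call with a batch term, and 7 of the 21 tested in batch 1 lost it there. No paired analysis was possible because the 2 lines share no replicate numbers. With 4 against 3 libraries an exact permutation test cannot go under 0.0286, and within batch 1 it cannot go under 0.10. Loci below a mean of 10 reads, tRNA-Phe-GAA-2-1 among them, are limited by depth.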
